A study of Homo sapiens with 6 samples.

Results

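The 2 input libraries of a ChIP-seq experiment in G401 cells are described here, 1 from cells given DMSO and 1 from cells given MAK683, out of 6 libraries in the count table. Both were taken by their labels, so no measured value chose them. G401 is a malignant rhabdoid tumor line that lacks SMARCB1, a subunit of the SWI/SNF remodeling complex. The cells were kept for 3 days in DMSO or in 3 µM MAK683, which inhibits PRC2 through its EED subunit, and both groups carry the same SMARCB1 loss. Chromatin was fixed, sonicated and mixed with Drosophila chromatin, and input is the part of it that was sequenced without an antibody. Of 56638 rows in the table, 1 per annotated gene, 24196 had at least 50 counts over both inputs and were compared between them.

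Input reads come from all DNA of the cells, so a region with more copies gives more reads per base, a deleted region gives none, and a region whose sequence occurs in several places gives few reads that an aligner can place. The number of reads also depends on GC content through amplification of the library. A count per gene adds a last step, in which a read that overlaps more than 1 annotated gene is usually left unassigned. Input is therefore read here per kb of unshared span, meaning the bases of a gene that no other annotated gene overlaps.

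The DMSO input held 16837480 counts and the MAK683 input 19514289, 1.16 times as many, so that 53.7% of the counts of both lay in MAK683. A row at 3 counts, the most that a count of 0 allows, stood at 0.178 CPM (counts scaled to the library total) in DMSO and at 0.154 CPM in MAK683. With 1 library per treatment nothing could be tested, and intervals below cover counting error only. Rows were placed by matching 35307 symbols, 62.3% of the table, to GENCODE release 44 on GRCh37. The version used for counting is not given in the sources used here, so that a gene's span in the count table may differ from the span used here. The 37 rows of the mitochondrial genome had 0 counts in all 6 libraries.

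A few reference sequences show what the empty rows look like. The small nucleolar RNA gene SNORD115-1 (GRCh37, chr15:25415870-25415951, plus strand) is shown with capitals at the 50 positions that differed in at least 1 of the other copies of its length. Windows of 150 bases, the read length of the study, are shown on the plus strand from introns or other non-exonic bases of FAM27C (chr9:44992062-44992211), which lies in a duplicated region, and of EIF4G1 (chr3:184034283-184034432) and SLIT1 (chr10:98762795-98762944), which do not.
SNORD115-1: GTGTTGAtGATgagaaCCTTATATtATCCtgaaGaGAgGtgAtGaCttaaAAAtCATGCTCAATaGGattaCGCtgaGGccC
FAM27C window: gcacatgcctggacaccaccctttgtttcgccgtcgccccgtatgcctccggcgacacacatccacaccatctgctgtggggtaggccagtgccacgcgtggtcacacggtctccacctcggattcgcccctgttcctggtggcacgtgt
EIF4G1 window: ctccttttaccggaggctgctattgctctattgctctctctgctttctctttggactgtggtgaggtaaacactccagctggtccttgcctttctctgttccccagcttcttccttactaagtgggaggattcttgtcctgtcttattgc
SLIT1 window: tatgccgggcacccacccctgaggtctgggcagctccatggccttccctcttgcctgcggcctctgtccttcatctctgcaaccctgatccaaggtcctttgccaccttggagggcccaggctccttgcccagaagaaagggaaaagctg
The 44 SNORD115 copies without input held 38 different sequences, and the sequence of SNORD115-1 occurred 1 time. The FAM27C window occurred 3 times in the reference, all on its own chromosome, and the EIF4G1 and SLIT1 windows 1 time. All of these genes had 0 counts in both inputs, so that empty rows included both repeated and single-copy sequence.

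The question of the first comparison was how closely the 2 inputs agree row by row. The paper's methods scale ChIP-seq reads by the reads of the added Drosophila chromatin and do not describe scaling to input. Of the 24196 rows compared, 154 (0.636%) were at least 2-fold apart in CPM, 111 of them (0.459%) higher in MAK683 and 43 (0.178%) lower. The rows that were apart were shallow, with a median of 68 and at most 198 counts over both inputs. None of 8462 rows with at least 1000 counts was 2-fold apart. Over all rows compared the median log2 ratio of MAK683 over DMSO was 0.0037, and the middle 95% of rows lay between -0.49 and 0.60. Across rows, which are not independent replicates, the log2 counts of the inputs had a Pearson r of 0.992 and the counts a Spearman rho of 0.993, with gene length shared by both.

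**Figure D1:**
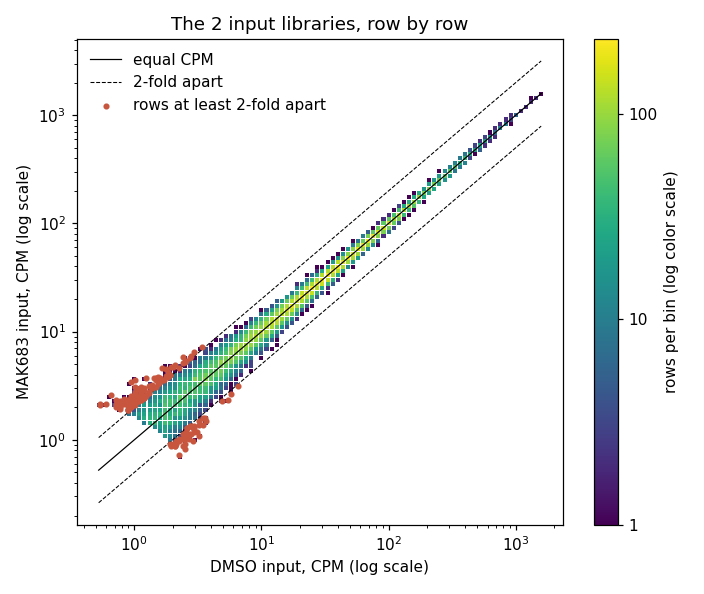
Each small square is a bin of rows with at least 50 counts over both inputs, placed by DMSO input (x axis) and MAK683 input (y axis) in CPM on log scales and colored by the number of rows in it. The solid line marks equal CPM, the dashed lines 2-fold differences, and the red points are the 154 rows at least 2-fold apart, all at the shallow end of the cloud.

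The rows furthest apart were pseudogenes, genes with clone names and a few short coding genes. KRT17P1, a keratin pseudogene on chromosome 17, had 38 counts in DMSO and 14 in MAK683, the lowest MAK683 share at 26.9% (95% Clopper-Pearson interval, 15.6 to 41%). At the other end RP11-699L21.2 had 9 and 42 counts, a share of 82.4% (69.1 to 91.6%). HINT2, a mitochondrial histidine triad hydrolase encoded on chromosome 9, had 10 and 42 counts, a share of 80.8% (67.5 to 90.4%). HINT2 has no unshared span in the annotation used here, so its counts came from bases that other genes overlap there. Among the 154 rows, the 57 autosomal ones that were higher in MAK683 had a median length of 3.40 kb and a median GC content of 54.7%, and the 17 lower ones 4.12 kb and 55.0%. The 17080 autosomal rows among those compared had a median length of 32.0 kb and a median GC content of 44.7%. Autosomal rows apart in either direction were thus shorter and richer in GC than all those compared. They were also shallow, and short rows were richer in GC at any ratio. The median GC content was 52.5% in autosomal rows of 2 to 10 kb and 41.5% in those of 50 to 200 kb. Rows of the same depth were not compared, so length and GC content are not separated from depth here. Unmatched rows, 52 of the 111 higher and 25 of the 43 lower, are not in these medians.

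Among deep rows the extremes were small. CLHC1, a clathrin linker protein gene on chromosome 2, had the lowest log2 ratio of the rows with at least 1000 counts, -0.42, with 762 counts in DMSO and 662 in MAK683. G3BP1, a stress granule protein, followed with 594 and 529 counts. DUSP10, a MAP kinase phosphatase on chromosome 1, had the highest at 0.50, with 402 and 661 counts, a MAK683 share of 62.2% (59.2 to 65.1%). PRKD2, protein kinase D2 on chromosome 19, stood at 0.46, with 467 and 745 counts. The kinase gene and the phosphatase gene both lay below the 2-fold line, as did every other row of this depth.

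The 2 inputs differed by more than the counting error of single reads, and about by that of read pairs. The 95% interval of a row's MAK683 share held the share of the library totals for 81.7% of rows, with 2379 rows above it and 2043 below. The variance of the log2 ratio was 2.10 times the variance that independent counts give. The lowest counts were more often even than odd. In the DMSO input, 1177 rows had a count of 2 and 796 a count of 1, and in the MAK683 input 929 and 673, and over counts of 1 to 8 even counts made up 52.4% and 52.2%. This rested on the counts of 1 and 2. Over counts of 3 to 8, 2607 rows were even and 2637 odd in DMSO, and 2411 and 2384 in MAK683. The reads were paired, and a table in which both reads of a fragment are counted apart has a counting variance of 2 times the usual one. When each fragment was taken as 2 counts, 94.3% of row intervals held the share of the totals, and the SD of the log2 ratio beyond counting error went from 0.188 to 0.057. That pairs were counted apart is not given in the sources used here and was not tested otherwise. The intervals printed for single rows take each count as independent, and are too narrow if it was so.

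The spread fell with depth and stayed close to that of read pairs through most of the range. Rows with 50 to 99 counts had an SD of 0.50 on the log2 scale, against 0.35 for independent counts and 0.49 for pairs. Rows of the next depth class, from 100 to under 200 counts, had 0.34, against 0.24 and 0.35. In the 1586 deepest rows the SD was 0.060, against 0.032 and 0.046, so that the deepest rows kept a small difference beyond either kind of counting.

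GC content moved with the difference between the inputs. Autosomal rows were split into 10 equal groups by GC content. In the group with the lowest GC content, with a median of 36.1%, the median log2 ratio of MAK683 over DMSO was -0.034, and in the highest, with a median of 60.9%, it was 0.109. It rose from each group to the next. Of the 57 autosomal rows at least 2-fold higher in MAK683, 21 lay in the highest GC group and 13 in the one below it. Of the 17 at least 2-fold lower, 4 lay in the highest group and 5 in the one below it. Rows apart in either direction were thus frequent at high GC content. All rows apart had at most 198 counts, and the share of shallow rows in each GC group was not compared. Correction by a smooth curve in GC content moved the SD of autosomal rows beyond independent counting from 0.170 to 0.163, so GC content went with a small part of the spread. Gene length moved with the ratio as well, from a median of 0.097 in rows under 2 kb, with a median GC content of 50.3%, to -0.009 in rows of 50 to 200 kb, with 41.5%.

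**Figure D2:**
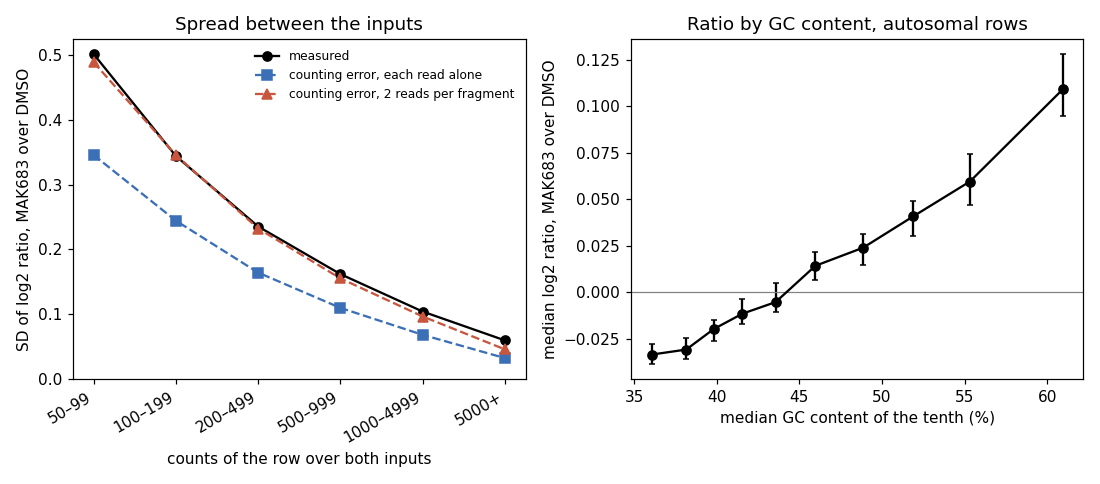
Left, the SD of the log2 ratio of MAK683 over DMSO input (y axis) by the counts of a row over both inputs (x axis), as measured (black) and as counting error gives for independent reads (blue) or for 2 reads per fragment (red); the measured line lies close to the red one. Right, the median log2 ratio of autosomal rows (y axis) in 10 groups by GC content (x axis, median GC of the group), with 95% intervals of the median, which rose from -0.034 to 0.109.

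The second comparison asked whether any chromosome arm was present in more or fewer copies than the rest. None of 39 autosomal arms with at least 20 genes lay 25% above or 20% below the median arm, in the mean of both inputs or in either input alone. Over 12560 genes with at least 10 kb of unshared span, the median gene had 12.6 counts per kb in DMSO and 14.6 in MAK683. Relative to the median arm, arms ran from 0.950 to 1.05, so the highest was 1.11 times the lowest. For comparison, an arm with 3 copies where the rest has 2 would stand at 1.5, and an arm with 1 copy at 0.5. A relative level shows differences between arms only, and cannot show how many copies the typical arm has.

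The lowest arms were 5p, 9p and 13q and the highest 22q, 17q and 20q. Chromosome arm 5p, which carries the telomerase gene TERT, had 11.9 counts per kb in DMSO and 14.0 in MAK683 over 130 genes, a relative level of 0.950. TERT itself had 441 and 568 counts, 0.99 times what its unshared span and the level of its arm give. Arm 9p, which carries the SWI/SNF ATPase gene SMARCA2 and the CDKN2A locus, had 12.2 and 13.8 counts per kb, also 0.950. Arm 13q, which carries RB1 and BRCA2, had 12 and 13.8 counts per kb, again 0.950. In 9p and 13q the lower quartile of genes reached down to 0.788 and 0.835, against 0.900 in 5p.

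Arm 22q, which carries NF2, CHEK2, LZTR1 and SMARCB1, had 13.1 counts per kb in DMSO and 15.4 in MAK683 over 295 genes, a relative level of 1.05. NF2, the merlin gene, had 1279 and 1433 counts and stood at 1.0 of its expected count. CHEK2, a checkpoint kinase, had 742 and 794 counts and stood at 0.98. Arm 17q had 13 and 15.5 counts per kb over 449 genes, with a relative level of 1.05, and arm 20q 13.2 and 15.2 over 240 genes, with 1.04. On 17q, ERBB2 stood at 0.98, NF1 at 0.94 and BRCA1 at 0.95 of their expected counts. Not all genes of these arms stood at the level of their arm. SMARCA2 on 9p was at 0.82, over a span that was not alike in GENCODE and RefSeq. LZTR1 had 460 counts over both inputs where 26.2 were expected from 0.911 kb of unshared span in a gene of 16.8 kb. SMARCB1 had none.

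GC content ran along with the order of arms. The lowest arms had a median GC content of 40.6% (5p), 40.6% (9p) and 39.4% (13q), and the highest 50.1% (22q), 48.0% (17q) and 47.8% (20q). As a description over 39 arms, which share the same 2 libraries, the arm level and its GC content had a Pearson r of 0.888 and a Spearman rho of 0.919. After the level of each gene was corrected by a smooth curve in GC content, arms ran from 0.973 to 1.02, and the SD over arms went from 0.028 to 0.011. The change of an arm between the inputs, as relative levels, ran from -2.1 to 3.5%, and the 2 inputs had a Pearson r of 0.877 over arms.

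Stretches of genes with input were alike within arms as well. Single genes were followed in order along the chromosomes for 9316 genes above 0. At least 90% of their windows aligned uniquely, and their length was within 10% in GENCODE and RefSeq. After the GC correction 93.0% of them lay between 20% below and 25% above the median gene. Genes at 0 were left out, so that a stretch without input, such as that around SMARCB1 on 22q, could not appear. The running median of 15 genes lay between 0.899 and 1.08 on all 39 arms. Its lowest point was at ZNF431, a zinc finger gene on 19p, and its highest at SP7, a bone transcription factor gene on 12q. A gain or loss that covers only a few genes, or that is present in a small part of the cells, would not show in such a running median.

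**Figure D3:**
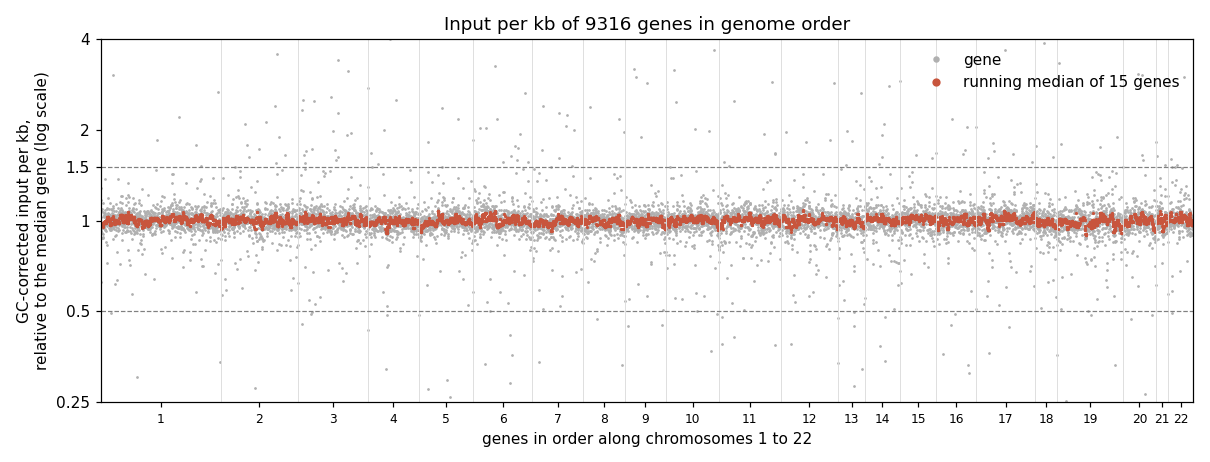
GC-corrected input per kb, as the mean of both inputs in CPM relative to the median gene (y axis, log scale), for 9316 genes in order along chromosomes 1 to 22 (x axis), with single genes in gray and the running median of 15 genes in red. The running median stays between 0.899 and 1.08, between the dashed lines at 0.5 and 1.5; 88 single genes lie beyond the drawn range of 0.25 to 4.

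Oncogenes that are often amplified in tumors were close to the level of their arms. Of 22 on the list, 21 had an expected count of at least 50, 17 of those lay between 20% below and 25% above it, and their median was 1.02. Over all 16878 autosomal genes with that expected count, the median was 1.0 and 80.8% lay in that range. MDM2, a ubiquitin ligase, had 359 counts in DMSO and 467 in MAK683 and stood at 0.92. CDK6, a G1 kinase, had 2791 and 3366 and stood at 1.09, and MET, a receptor kinase, had 1496 and 1858 and stood at 0.98. EGFR, a receptor kinase on 7p, stood at 1.23 with 2761 and 3339 counts. MDM4 stood at 1.36 with 681 and 839 counts. The highest was MYC at 1.91, from 92 and 109 counts over 3.96 kb of unshared span in a gene of 7.52 kb, and CCND2 had no unshared span.

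Tumor suppressor genes and the genes of PRC2 and SWI/SNF could be read in part. Of 17 tumor suppressor genes, 13 had an expected count of at least 50, 11 of those lay between 20% below and 25% above it, and their median was 0.97. BRCA2, a homologous recombination gene, had 1111 counts in DMSO and 1129 in MAK683 and stood at 1.03. RB1 stood at 0.80 with 1508 and 1644 counts, and its length was not alike in the 2 annotations. CDKN2A, CDKN2B and MTAP have no unshared span here, so their 0, 0 and 1 counts over both inputs say nothing about copies. Of the PRC2 genes on autosomes, EZH2 stood at 0.94, SUZ12 at 0.96, EZH1 at 1.02 and RBBP4 at 0.98. EED, the subunit that MAK683 binds, had 480 and 540 counts and stood at 0.47, over a span of 77.6 kb that was not alike in the 2 annotations. Of 11 SWI/SNF genes, 10 had an expected count of at least 50 and 8 of those lay between 20% below and 25% above it, with a median of 0.98. ARID1A stood at 1.03, ARID1B at 1.02, PBRM1 at 0.97 and SMARCA4 at 0.91. The 2 outside that range were SMARCB1 at 0 and SMARCE1 at 1.68, from 115 counts over 2.39 kb of unshared span, and SMARCC2 had 0 counts and no unshared span.

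SMARCB1 had 0 counts in both inputs where 1368 were expected, and G401 is described as lacking it. The run of empty rows around it held 45 rows, of which 27 were matched, with 303 kb of unshared span and 8725 expected counts, 97.1% of its windows aligning uniquely. It is given only as the scale for the other runs.

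The third question was where else both inputs were empty. In all, 19168 rows (33.8%) had 0 counts in both inputs, 577 were at 0 in DMSO only and 421 in MAK683 only, with at most 20 counts in the other input. Whether a gene had bases of its own separated empty rows from others. Of 9964 autosomal rows without unshared span, 82.8% (82.0 to 83.5%) were at 0. Of 12560 with at least 10 kb of it, 0.852% (0.699 to 1.03%) were at 0. Of the rows with some unshared span but under 200 bases, 12.9% (11.5 to 14.4%) were at 0, with a median of 6 counts over both inputs.

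Classes of genes differed accordingly. Small nucleolar RNA genes, which sit in introns of host genes and guide the modification of other RNAs, were at 0 in 277 of 298 autosomal rows (93.0%), and 95.6% had no unshared span. MicroRNA genes were at 0 in 1856 of 2810 rows (66.0%), with a median length of 86 bases. Pseudogenes were at 0 in 40.1% of 5990 rows, genes of long noncoding RNA in 34.0% of 1814 and protein-coding genes in 9.59% of 18306. Among protein-coding genes with unshared span, 383 of 16426 (2.33%) were at 0.

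Read-through genes, whose name joins those of a pair of neighboring genes and whose span covers both, gave a class of coding genes with many empty rows. Of 91 autosomal read-through rows 51.6% (40.9 to 62.3%) were at 0, and of the 177 rows that they join 57.6% (50.0 to 65%), against 8.96% (8.55 to 9.39%) of 18051 other coding rows. Examples at 0 in both inputs were RNF103-CHMP3, CHURC1-FNTB and PRR5-ARHGAP8, of which 2655, 406 and 428 counts were expected from their unshared span. IQCJ-SCHIP1, a read-through gene of 935395 bases, was not empty and had 7257 counts in DMSO and 8332 in MAK683.

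Runs were taken as at least 5 consecutive rows of the table at 0 in both inputs, placed on 1 autosome. Beside the run around SMARCB1 there were 534 runs with 3772 rows, 19.7% of all empty rows. Of these, 444 (83.1%) had no unshared span, 37 had some but fewer than 100 expected counts, and 53 had 100 or more.

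The longest runs were gene families inside or across other genes. The longest, 79 rows from SNORD108 to SNORD109B on chromosome 15, held the SNORD116 and SNORD115 clusters, which lie within SNHG14, their host transcript, and SNHG14 itself had 7398 counts over both inputs. A run of 33 rows from HBE1, the embryonic beta-like globin gene, to TRIM34 lay on chromosome 11, between HBG2 with 1712 counts and TRIM5 with 5436. Of 23 rows each were a run of olfactory receptor genes from OR51F5P to OR51A5P on chromosome 11, next to MMP26 with 6383 counts, and a run of bitter taste receptor genes from TAS2R10 on chromosome 12, next to PRR4 with 2503. The gamma protocadherins from PCDHGA2 to PCDHGC5 on chromosome 5 gave 22 rows. These genes share the last exons of 1 locus, so that each lies within the span of the ones before it, and PCDHGA1, the outermost, had 209 counts.

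Families differed in how many of their rows were empty, in a listing chosen after the values were seen. Of 38 rows of the alpha and gamma protocadherins 36 were at 0, of 13 UGT1A rows 10, of 31 TAS2R rows 20 and of 824 olfactory receptor genes and pseudogenes 221 (26.8%). T cell receptor and immunoglobulin segments were mostly not empty, with 1 of 111 TRAV and TRBV rows and 57 of 325 IGKV, IGLV and IGHV rows (17.5%) at 0.

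**Figure D4:**
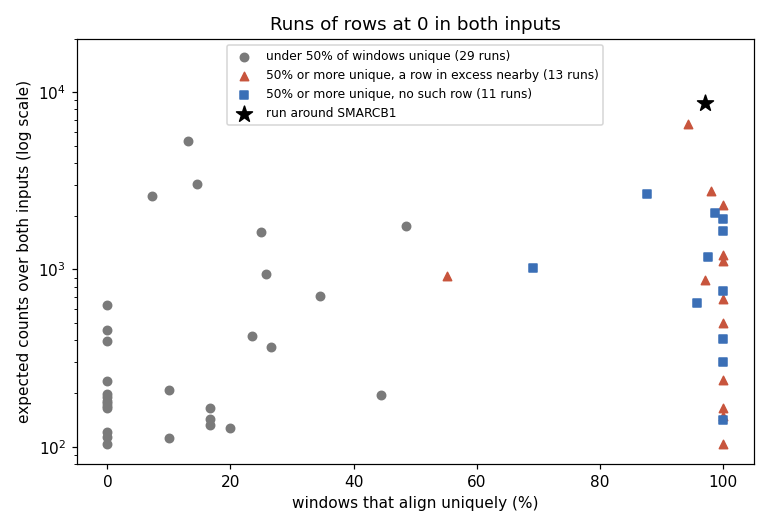
Runs of rows at 0 in both inputs with at least 100 expected counts, by the share of 150-base windows that align uniquely (x axis, percent) and the expected counts over both inputs (y axis, log scale). Gray circles are the 29 runs under 50% unique, red triangles the 13 others with a row in excess nearby, blue squares the 11 without one, and the star, highest of all, is the run around SMARCB1.

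The 53 runs with at least 100 expected counts held 410 rows and 1.90 Mb of unshared span, and 51365 counts were expected in them. They were described by how many of their windows aligned uniquely and by whether a row within 6 places had at least 2 times its expected count and at least 100 counts more. Both measures were chosen after the runs were seen. In 29 runs, with 20969 expected counts, under 50% of windows aligned uniquely. In 13 runs, with 17676, at least 50% of windows aligned uniquely and a nearby row was in excess. A row without unshared span has an expected count of 0, so it was in excess by rule at 100 counts or more. The rows in excess included PRR4 with 2503 counts, ENPP7P2 with 979, SLC35B3 with 508 and SYNJ2BP-COX16 with 303, all with 0 expected. DDX58 had 1858 where 0.54 were expected. In 11 runs, with 12720, at least 50% of windows aligned uniquely and no matched nearby row was in excess. The lowest unique share was 55.3% in the 13 runs and 69.2% in the 11. Many of the expected counts in the 53 runs came from genes whose span differed between GENCODE and RefSeq. From genes with alike spans alone, 8038, 10260 and 7937 counts were expected in the 3 kinds, and 10, 3 and 3 runs had none.

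Runs in duplicated sequence were most frequent on chromosome 9, which had 9 of the 29. FAM27C, in a run to RP11-374M1.4, had 204.1 kb of unshared span and 5285 expected counts, and 13% of windows aligned uniquely. Its span was not alike in the 2 annotations. The run from RP11-381G8.1 to AL353791.1 on the same chromosome had 3037 expected counts, 158 of them from genes with alike spans, and 14.6% unique windows. RGPD6, a member of the RANBP2 family on chromosome 2, was in a run with 2590 expected counts and 7.22% unique windows. The 4 chemokine genes with unshared span from CCL3L3 to CCL4L2 on chromosome 17 gave 177 expected counts in a run with 25% unique windows, and TBC1D3G in the same run, a member of a duplicated family, gave 1459. A run of 5 rows to PRAMEF19 on chromosome 1 had 631 expected counts and none of its windows unique. The FAM27C window printed above is an example of this sequence.

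Input fell with the share of unique windows over single genes as well. Over all autosomal genes with at least 10 kb of unshared span, those in runs included, 46 genes with under 10% unique windows had a median of 0.0073 of the median gene, 165 genes with 10 to 49% had 0.063, 195 genes with 50 to 89% had 0.634 and 12154 genes with 90% or more had 1.0. SMN1 and SMN2, the paralogs of which SMN1 is lost in spinal muscular atrophy, had 26 and 22 counts over both inputs, 0.036 and 0.030 of the expected. The complement genes C4A and C4B had 14 and 12 counts, 0.030 and 0.024. AMY1A, a salivary amylase gene, had 0 of 243. Of 26 genes listed as near-identical copies, 25 were placed on autosomes and 2 had no unshared span. Of the 25, 10 had 0 counts, against 33.8% of all rows in the table. The 19 with at least 50 expected had a median of 0.030, against 1.0 over all autosomal genes with that expected count. GOLGA8A, a golgin gene with 46.3% unique windows, was at 0.91.

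In the 13 runs with a row in excess, counts were missing in one gene and more than expected in another close by, where in some runs 0 were expected. The run with the most expected counts beside that around SMARCB1, from DPY19L1P1 to RNU6-388P on chromosome 7, had 6655 expected in 247 kb, of which 2030 came from genes whose span was alike in both annotations. AVL9, the row before it, had 5543 counts over both inputs where 2303 were expected. On chromosome 3 the 11 rows to EIF4G1, which include DVL3 and the scaffold of the translation initiation complex EIF4G1 itself, had 2311 expected counts and 100% unique windows, and EIF2B5, just before them, had 8394 counts where 292 were expected. OR2L13 on chromosome 1 had 3688 counts where 163 were expected, next to a run of 10 olfactory receptor rows with 1200 expected. EDEM2 on chromosome 20 had 2751 against 907, next to the run from PROCR to MMP24 with 1117 expected, 825 of them from genes with alike spans. JUP, plakoglobin, on chromosome 17 had 3508 against 922, next to a run from KRT42P with 683 expected that holds HAP1.

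Of the 11 runs with unique windows and no matched row in excess, the run of RNF103-CHMP3 on chromosome 2 had the most expected counts, 2655. Next was the run from FAM131A to EPHB3, an ephrin receptor gene, on chromosome 3 with 2072, of which 1602 came from genes with alike spans. It begins 2 rows after the EIF4G1 run, with SNORD66 at 4 counts between them. EIF2B5, the row before the EIF4G1 run, had 8394 counts where 292 were expected. EIF2B5 lay too far from the FAM131A run to be among the rows searched for an excess. Whether the excess in EIF2B5 includes reads from the span of the FAM131A run was not tested. A run to ZNF84 on chromosome 12 had 1925 expected counts, 716 of them from genes with alike spans, and the next gene, ZNF140, had 56 counts where 666 were expected. The run to VN1R53P on chromosome 10 had 1640, with ANKRD30A before it at 3167 against 2844. CHRNA1, an acetylcholine receptor subunit gene, was in a run with 299 expected counts, and the unmatched row before it, AC018890.6, had 2367 counts. In the VN1R53P and CHRNA1 runs 0 expected counts came from genes with alike spans. Loss of DNA and overlap with another gene in the annotation used for counting cannot be told apart here for such runs.

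The killer cell immunoglobulin-like receptor genes, whose number differs between people, formed 1 of these runs. On chromosome 19 the 9 rows from KIR3DL1 to KIR2DS4 had 0 counts in both inputs where 1169 were expected, with 97.6% of 42 windows unique. KIR3DL2, the next gene, had 2 counts in DMSO and 1 in MAK683 where 476 were expected. FCAR beyond it had 247 and 245 counts, 1.06 times its expected, and LILRB4 before the run 346 and 365, 0.99 times. Further out, LILRB1 had 462 and 541 counts where 525 were expected over both inputs, 1.91 times, and LILRA2 had 10 and 10 where 469 were expected. The empty stretch thus ended between KIR3DL2 and FCAR.

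Single genes outside runs were empty as well. Of 579 autosomal genes with unshared span at 0 outside runs, 131 had at least 100 expected counts and 74 of those at least 90% unique windows. The most was expected in B3GALT1, a galactosyltransferase gene on chromosome 2 (chr2:168149511-168730555), with 6784 counts over 254 kb of unshared span and 98.4% unique windows. PKD1L1 on chromosome 7, which acts in left-right patterning, had 4805 expected and 0 found, and its neighbor HUS1 had 2989 where 440 were expected. SLIT1, an axon guidance ligand on chromosome 10, had 4176 expected and 0 found, with no matched row in excess nearby. SLC22A25, an organic anion transporter gene on chromosome 11, had 2368 expected, beside SLC22A10 with 4445 against 1224. MINOS1 on chromosome 1, SIAH2-AS1 on chromosome 3, LINC01010 on chromosome 6 and C14orf144 on chromosome 14 had between 1759 and 2936 expected and 96.6% or more of windows unique. FAM115C on chromosome 7 and ZDHHC11B on chromosome 5, with 16.7 and 86.3% unique windows, were the other two of the 10 genes with the most expected.

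At the other end, PDE4DIP on chromosome 1 had 30.5 times the input per kb of the median gene, EIF2B5 28.2 times, USP13 and ZNF280D 13.1 and 13 times and CEP164P1 8.86 times. In PDE4DIP, USP13 and ZNF280D the unshared span was 16651 of 240071 bases, 10778 of 151335 bases and 22312 of 103911 bases. In EIF2B5 the span was not alike in the 2 annotations. High values were also found in genes that were read over their whole length, with alike spans and unique windows, in examples chosen after their values were seen. HUS1 had 1305 counts in DMSO and 1684 in MAK683, 6.63 times the median gene, and PSG8, CXCL12 and ARRDC4 stood at 5.74, 5.10 and 4.04 times.

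Genes whose length was alike in both annotations and with at least 90% unique windows could be low as well. Of 9359 such genes, 243 (2.60%) had under 0.65 of the median and 227 (2.43%) stood more than 35% above it. Of the high ones 15 were read over their whole length, 8 of those at 2 times the median or more, and 43 of the low ones had 0 counts. Olfactory receptor genes made up 32 of the low genes, of 38 in the set, with a median of 0.101. HTR1F, a serotonin receptor gene, had 35 counts in DMSO and 46 in MAK683 over 198 kb, 0.015 of the median, and BIRC5, survivin, 17 and 16 over 11.5 kb, 0.106. OLAH, DAP3 and PRPF6 had no counts over 41.6, 49.5 and 52.0 kb. Both annotations are later than hg19 itself, and whether these genes had the same span in the annotation used for counting was not tested.

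Genes known to be deleted in part of the population had lower input than most. Of 13 on the list 5 had 0 counts, against 33.8% of all rows in the table, and 2 on the list had no unshared span. The 7 with at least 50 expected counts had a median of 0.43. Of these, 1 lay between 20% below and 25% above its expected count, against 80.8% of all such autosomal genes. UGT2B17, which conjugates steroid hormones, had 146 counts in DMSO and 181 in MAK683 where 1016 were expected, a level of 0.32. UGT2B28 had 83 and 83, a level of 0.44, while their neighbors UGT2B15 and UGT2B10 stood at 0.84 and 0.86. ADAM3A and ADAM5, pseudogenes of the ADAM protease family, had 385 and 457 counts and 929 and 1129, levels of 0.43 and 0.73, between ADAM32 at 0.99 and ADAM18 at 0.87. APOBEC3B, a cytidine deaminase, stood at 0.92. GSTT1 had 0 of 244 and lies inside the run around SMARCB1, and GSTM1 had no unshared span.

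The rows of the 534 runs were nearly empty in the antibody libraries as well. Of their 3772 rows, 50 (1.33%) had any count in an H3K27me3 or H3K4me3 library, with at most 56 in 1 library. The other rows of the runs had 0 counts in all 6 libraries.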

How the data were processed

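Only the 2 input libraries were compared, with 1 library per treatment and no replicate. Per the paper's methods and the labels, the authors trimmed paired reads (Trim Galore 0.4.4) and aligned them to hg19 with Bowtie2. The paper words its Picard 2.23.6 step as depleting repeat sequences, and its scaling method speaks of removing duplication. Raw counts per gene from featureCounts were deposited. The annotation and the counting options are not given in the sources used here. Values were scaled to CPM by library total, and log2 ratios used a pseudocount of 1 count. Rows were placed by symbol in GENCODE release 44 on GRCh37, with older symbols from RefSeq (GRCh38.p14), whose gene lengths were also compared. Unshared span ignores strand. Expected counts are the median counts per kb of the arm times unshared kb. Windows of 150 bases every 1000 bases were aligned as single reads with minimap2 2.31 to chromosomes 1 to 22, X and Y. GC correction used lowess (statsmodels). Scripts were tested on simulated data. The text names the 5 rows furthest apart in each direction at most, the 3 highest and lowest arms, runs by expected counts and by rows, the 10 empty genes with the most expected counts, the 5 with the most input per kb, and fixed lists. All members, lists and rules were chosen with earlier results of these data known. Alternatives covered scaling, filters, pseudocounts, GC content, spans and run length. Some genes and sequences are not reported here.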

Additional observations from a re-analysis of the deposited data

Results flagged for a closer look

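Rows of the runs without input that nevertheless had more than 3 counts in an antibody library, the most that a count of 0 allows, are listed here. They lie outside the input libraries and had 0 counts in both inputs. The limit of 3 takes each count as independent, and it would be 6 if both reads of a fragment were counted apart, which 4 of the 18 counts listed exceed. The clearest was AC123886.2, a clone-named row beside RGPD6 on chromosome 2, which was not matched to the annotation. Its H3K4me3 libraries had 37 counts with DMSO and 56 with MAK683 and its H3K27me3 libraries 11 and 2, while each input had 0. RGPD6 itself had 10 and 9 H3K4me3 counts, and 7.22% of its windows aligned uniquely. ZNF664, a zinc finger gene on chromosome 12 with 383 bases of unshared span, had 20 and 8 H3K4me3 counts. RP4-539M6.19, also not matched, had 12 and 5.

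The other rows had between 4 and 6 counts at their highest, not above the limit for fragments of 2 counts. In H3K4me3 these were USP17L22 with 6 counts in DMSO and POLR2J4 with 5, and MEGT1 and FAM27C with 6 each and RARRES2P4, U85056.3 and RP11-347C12.8 with 4 each in MAK683. In H3K27me3 these were CNN2P2, RP11-374M1.4, GOLGA8G and U85056.3 with 4 each in DMSO, and CCL4L1 with 6 and PPIAL4A and KIR3DL1 with 4 each in MAK683. With 1 library per treatment and antibody, the part of depth and of reads placed at random among copies in these counts was not tested.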

How the results depend on the processing

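No paired analysis was possible because each treatment had 1 input library and the labels give no replicate numbers. The number of rows at least 2-fold apart followed the depth that was asked for. It was 154 with at least 50 counts over both inputs, 982 with at least 20, 3720 with no filter and 0 of 17987 rows with at least 200. It was 94 with a pseudocount of 5, 74 of 17080 autosomal rows, and 155 when the median row ratio set the scale. The median log2 ratio went from 0.0037 to -0.000894 with at least 200 counts. The SD beyond counting was 0.188 over all rows, 0.170 over autosomal rows, 0.163 after GC correction and 0.057 when a fragment was taken as 2 counts, an alternative chosen after seeing the data. The count of arms 25% above or 20% below the median arm was 0 under all 9 alternatives, and the lowest arm under any of them was 9p at 0.859, as the sum of counts over the sum of kb. The 534 runs became 1713 with at least 3 rows and 73 with at least 10. The 53 runs with 100 expected counts became 110 with at least 3 rows. They became 29 when only genes with alike spans counted and 32 when only the unique share of the span did, 2 alternatives chosen after seeing the data. Depth limits single rows more than arms, and the unknown annotation limits every expected count.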
